A study of Mus musculus with 8 samples.

Results

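The genes described here are 37 genes of macrophages and neutrophils, measured by RNA sequencing in 8 mouse prostate tumors. They were chosen by name as genes that report myeloid cells in a tumor, out of 38115 genes listed in the count tables. Of the 37, 36 were found by their symbol and 1, Spi1, by its gene identifier, since the tables list it under its older symbol Sfpi1. All 37 passed the filter on low counts, so every one entered the tests.

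The tumors came from Myc-CaP, a prostate cancer line made from a mouse that carries a MYC transgene in the prostate epithelium, grown in the anterior prostate lobe of male FVB mice. Its AS (androgen sensitive) and CR (castrate resistant) lines were each injected into hosts that were intact or had been castrated by surgery beforehand. The labels do not say which tumor grew in which kind of host, so line and host cannot be told apart. A primary tumor is the growth at the injected lobe. The metastatic tumors are described as met tumors from these mice, with no site and no link to a particular primary tumor. There were 2 primary AS, 2 metastatic AS, 2 primary CR and 2 metastatic CR tumors, so each phenotype and each tumor type had 4. The numbers in names such as primary AS1 only tell tumors apart. Each phenotype is 1 cell line, and the labels do not say whether tumors of a group came from separate mice, so p-values measure the spread between these tumors only.

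Macrophages and neutrophils descend from a common myeloid precursor and enter tumors from the blood. The factor PU.1, encoded by Spi1, drives the myeloid program, and the growth factor CSF1 keeps macrophages alive through its receptor CSF1R. Tumor macrophages take up dead cells and debris through scavenger receptors, Fc receptors and complement C1q, digest them in lysosomes, and can express enzymes such as arginase 1 that alter the surroundings of other immune cells. Neutrophils are known for the calcium-binding proteins S100A8 and S100A9, which monocytes also make. In a bulk tumor, fewer myeloid cells and less RNA per myeloid cell cannot be told apart.

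Total counts per tumor ran from 20905806 in metastatic CR2 to 91886163 in metastatic AS2, and primary CR2 was also shallow at 24909389. The lowest AS total was 61237285, in primary AS1. Metastatic CR1 held 40586710 and primary CR1 76887592, so every CR tumor but primary CR1 was shallower than every AS tumor. Depth and phenotype can therefore not be fully told apart, also where primary CR1 differed from the other CR tumors. Levels are given as CPM, counts per 1000000 of library size after scaling by TMM factors, which ran from 0.822 to 1.18. Metastatic CR1 stood apart from the other 7 tumors in the myeloid genes, as described below. It is named at many values that rest on it, but not at every range. Among the ranges given without tumor names, it was the low end for Cd53, Aif1, Cd14, Msr1, Clec4n, Trem2, Cybb and Ncf1. The identifiers of the AS and CR libraries fall in separate number ranges, and any difference in handling between them cannot be told apart from phenotype.

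RefSeq promoter sequences on GRCm38.p6, from 250 bases before to 50 after the annotated start, were matched by symbol for 27 of the 37 genes. Cd14, C1qa, Spi1, Clec4n, Cd52, Nos2, Csf1r, Arg1, Tyrobp and Msr1 were not matched. The 4 printed here belong to neighboring genes with related products, C1qb and C1qc on chromosome 4 and S100a8 and S100a9 on chromosome 3. Capitals mark GAGGAA, the purine-rich core found in PU.1 sites, and TATAAA, the TATA box, searched on both strands, and neither motif can share bases with the other.

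C1qb (chr4:136886151-136886450, minus strand): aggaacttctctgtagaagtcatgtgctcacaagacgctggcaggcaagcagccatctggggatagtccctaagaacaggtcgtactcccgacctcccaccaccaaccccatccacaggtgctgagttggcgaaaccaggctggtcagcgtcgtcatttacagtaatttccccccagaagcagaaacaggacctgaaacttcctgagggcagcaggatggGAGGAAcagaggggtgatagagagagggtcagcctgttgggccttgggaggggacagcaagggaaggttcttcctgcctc

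C1qc (chr4:136892865-136893164, minus strand): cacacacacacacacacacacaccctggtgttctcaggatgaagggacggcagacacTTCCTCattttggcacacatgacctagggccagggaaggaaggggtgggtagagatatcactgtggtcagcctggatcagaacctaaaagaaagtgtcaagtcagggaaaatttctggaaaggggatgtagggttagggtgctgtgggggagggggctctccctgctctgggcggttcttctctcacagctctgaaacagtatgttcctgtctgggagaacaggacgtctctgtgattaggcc

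S100a8 (chr3:90668821-90669120, plus strand): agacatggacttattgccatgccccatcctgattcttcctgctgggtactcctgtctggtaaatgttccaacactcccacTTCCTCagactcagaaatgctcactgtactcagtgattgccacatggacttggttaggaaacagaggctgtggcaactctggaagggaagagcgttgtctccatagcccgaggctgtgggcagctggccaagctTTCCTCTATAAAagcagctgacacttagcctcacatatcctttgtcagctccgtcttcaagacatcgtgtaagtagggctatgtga

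S100a9 (chr3:90695672-90695971, minus strand): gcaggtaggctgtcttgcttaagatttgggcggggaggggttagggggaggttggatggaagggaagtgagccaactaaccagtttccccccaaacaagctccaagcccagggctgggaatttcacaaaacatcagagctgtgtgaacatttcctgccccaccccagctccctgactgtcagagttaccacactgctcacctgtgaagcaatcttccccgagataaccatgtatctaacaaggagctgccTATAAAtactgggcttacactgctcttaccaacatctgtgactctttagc

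C1qb held GAGGAA 30 bases before its start and C1qc held it 193 bases before, read on the opposite strand. S100a8 held it at 170 and 36 bases before its start, the nearer one directly beside a TATAAA at 30 bases. S100a9 held TATAAA at the annotated start and no GAGGAA in this window. Over the first listed promoter of each of the 27 genes, 17 (63%) held GAGGAA, and 9289 of all 32851 listed promoters (28.3%) did. TATAAA was in 6 of the 27 (22.2%) and in 13.6% of all. These matches describe the letters in the windows and are not binding sites.

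Levels between genes were compared per kb of exon, since longer genes collect more counts. Lyz2, the phagocyte lysozyme, had the highest mean over the 8 tumors, 204 CPM per kb. It was followed by Arg1 at 78.3, C1qa at 69.6, the lysosomal protease gene Ctss at 69.6 and C1qb at 45.3. At the low end were Cd163 at 0.954, the scavenger receptor gene Marco at 0.315 and Nos2, the inducible nitric oxide synthase, at 0.0614. Nos2 stayed at or below 0.756 CPM in every tumor, and S100a8 and S100a9 at or below 6.67 and 8.02 CPM.

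**Figure D1:**
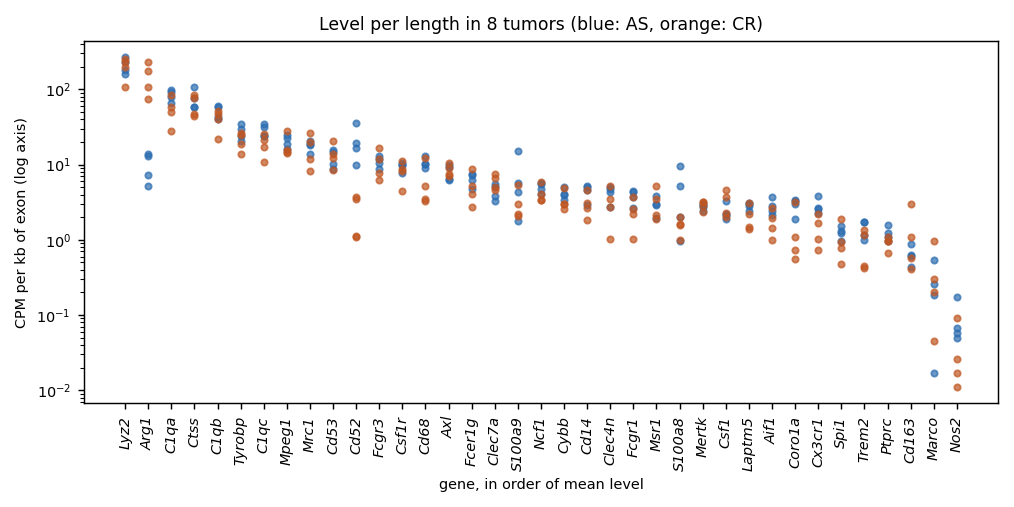
Level of each of the 37 genes in each tumor, in CPM per kb of exon on a log axis, with genes in order of their mean level. Blue points are the 4 AS tumors and orange points the 4 CR tumors. Lyz2 has the highest mean, at 204, and all orange points of Arg1 lie above its blue points.

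The labels macrophage and neutrophil were checked against other markers. The macrophage side was present, with Adgre1, which encodes F4/80, at 7.39 to 25.8 CPM and Itgam, which encodes CD11b, at 17 to 27.5. The neutrophil side was weak. Ly6g, the defining neutrophil surface gene, was at 0 in 6 tumors and at most 0.0582 CPM, Elane and Mpo were at most 0.116 and 0.202 CPM, and 11 of 20 genes of a neutrophil list were below 1 CPM in every tumor. Elane and Mpo lie outside the naming rule, and other genes of the list were higher. That list summed to 126 to 202 CPM in AS and 65.2 to 158 in CR tumors, of which Lcn2, named after its value was seen and also made by epithelial cells, was 39 to 171 CPM. The sum does not stand for the list's genes. Of the 14 tested, 8 had a positive and 6 a negative fold change in CR against AS tumors (median 0.34 on the log2 scale). The 37 genes are therefore called myeloid genes below.

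**Figure D2:**
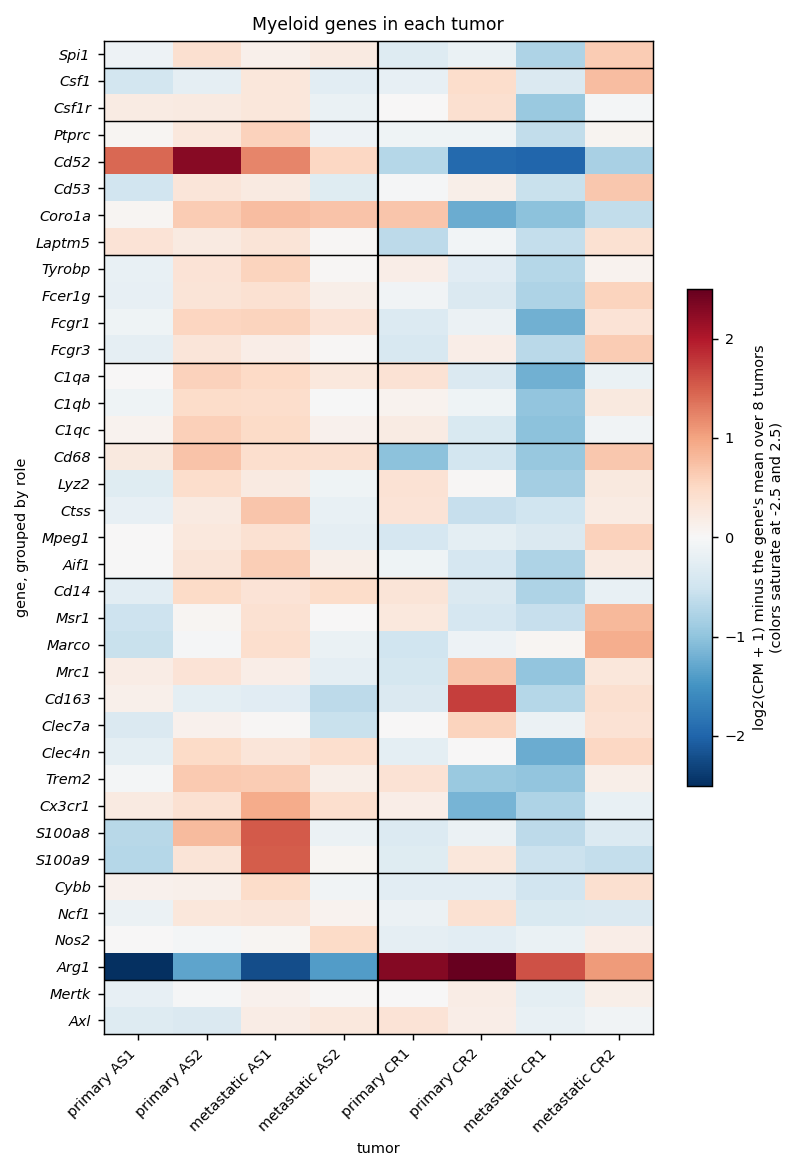
Difference of log2(CPM + 1) from each gene's mean over the 8 tumors, with genes in rows by role and tumors in columns, AS left of the line and CR right. Red is above and blue below the mean of that gene. Arg1 is blue in all 4 AS tumors and red in all 4 CR tumors, Cd52 is the reverse, and the column of metastatic CR1 is blue for most genes.

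Together the 37 genes took between 0.0721% of all counts in metastatic CR1 and 0.165% in metastatic CR2, and the extremes were thus the 2 tumors of one group. The median over the genes of log2(CPM + 1) was 3.65 and 4.10 in primary AS1 and AS2, 4.19 and 3.75 in metastatic AS1 and AS2, 3.72 and 3.9 in primary CR1 and CR2, and 3.47 and 4.05 in metastatic CR1 and CR2. The AS and CR tumors overlapped in this median, as did the primary and metastatic tumors. Metastatic CR1 was the lowest tumor for 23 of the 37 genes and the highest for none, while metastatic CR2 was the highest for 10 and the lowest for none. Metastatic CR2 exceeded metastatic CR1 in 35 genes, with a median ratio of 2.14. In the other 3 groups the median gap between the 2 tumors was 0.453 to 0.576 on the log2 scale, against 1.09 here. Over all tested genes, with a small value added to each level, the gap was 0.292 in primary AS and 0.243 in metastatic AS. It was 0.413 in metastatic CR and 0.555 in primary CR, where the 37 genes gave 0.576.

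**Figure D3:**
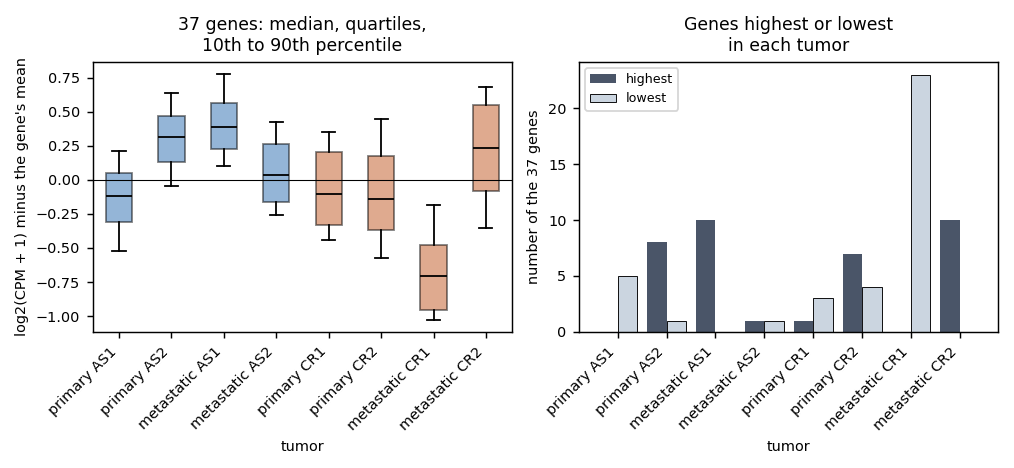
Left, the spread over the 37 genes of log2(CPM + 1) minus the gene's mean, for each tumor, as a median, quartiles and the range from the 10th to the 90th percentile. Right, the number of the 37 genes that were highest or lowest in each tumor. Metastatic CR1 has the lowest median, -0.70, and the lowest value for 23 genes.

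The first comparison asks how myeloid content differed between CR and AS tumors. Arg1, the arginine-degrading enzyme of alternatively activated macrophages, was far higher in CR tumors, and Cd52, a small surface glycoprotein gene of leukocytes, was far lower. These were the only 2 of the 37 genes with an adjusted p under 0.05 in edgeR's quasi-likelihood test. That is 5.41% of the genes, where 8.57% of all 18889 tested genes passed, so the share was not above the background. Limma-voom called the same 2 genes, with 7.78% of all genes. The remaining 35 genes had log2 fold changes from -1.47 for S100a8 to 0.88 for Cd163.

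Arg1 (chr10:24915221-24927484, minus strand, GRCm38) stood at 11.6 and 30.9 CPM in primary AS1 and AS2, 16.1 and 29.3 in metastatic AS1 and AS2, 393 and 508 in primary CR1 and CR2, and 239.5 and 167 in metastatic CR1 and CR2. Every CR tumor was thus above every AS tumor, and the lowest CR value was several times the highest AS value. The means were 327 ± 153 CPM (SD, n = 4) in CR and 22 ± 9.59 CPM (SD, n = 4) in AS tumors, a fitted 13.8-fold difference (log2 fold change 3.78, SE 0.38, adjusted p = 0.00387, edgeR). Arg1 made up between 12% and 32.6% of the summed CPM of the 37 genes in CR tumors and at most 2.81% in AS tumors. Relative to Lyz2, the count ratio was 0.0533 to 0.122 in AS and 0.548 to 1.93 in CR tumors, with no overlap. Arg1 kept its adjusted p under 0.05 without any 1 of the 8 tumors, at 0.00241 to 0.0279 (edgeR). Which cells of the tumor carry the transcript was not tested.

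Cd52 (chr4:134082448-134095082, minus strand, GRCm38) stood at 23.3 and 42.3 CPM in primary AS1 and AS2, 19.8 and 11.8 in metastatic AS1 and AS2, 4.46 and 1.32 in primary CR1 and CR2, and 1.28 and 4.13 in metastatic CR1 and CR2. All 4 CR tumors were below all 4 AS tumors. The means were 2.8 ± 1.74 CPM (SD, n = 4) in CR and 24.3 ± 12.9 CPM (SD, n = 4) in AS tumors, a fitted 8.03-fold lower level in CR (log2 fold change -3.01, SE 0.50, adjusted p = 0.017, edgeR). Relative to Ptprc, which encodes the leukocyte antigen CD45, its count ratio was 0.673 to 1.85 in AS and 0.075 to 0.253 in CR tumors. The Cd52 call was lost without primary AS1, primary AS2, metastatic AS1, metastatic AS2 or metastatic CR1, with adjusted p from 0.052 to 0.0706 (edgeR). Its exons share 14.5% of their bases with Crybg2 on the opposite strand, and the strand setting of the counting is not given in the sources used here. Lymphocytes also express Cd52, and lymphocyte markers are given at the end.

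**Figure D4:**
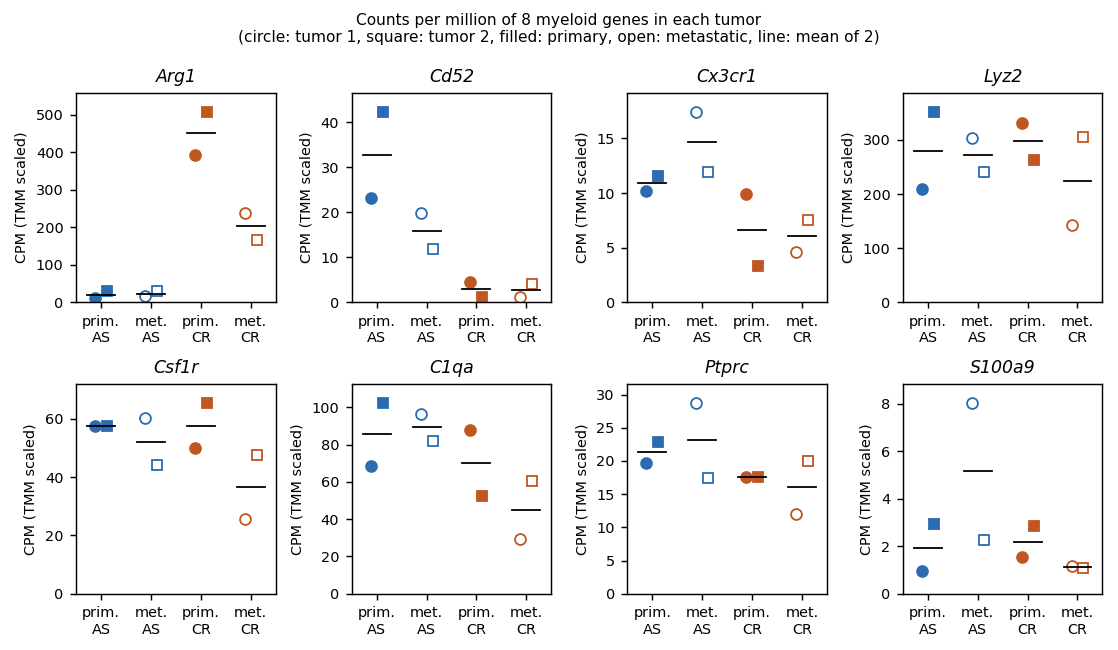
CPM of 8 of the genes in each tumor on linear axes from 0, for the 4 groups of 2 tumors, with a line at the mean of each pair. The CR points of Arg1, at 167 to 508, lie above all AS points, those of Cd52 and Cx3cr1 lie below all AS points, and the phenotypes overlap for Lyz2, Csf1r, C1qa, Ptprc and S100a9.

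The groups also did not overlap for 1 more gene, Cx3cr1, the receptor for the chemokine fractalkine. It stood at 10.2 and 11.6 CPM in primary AS1 and AS2, 17.4 and 11.9 in metastatic AS1 and AS2, 9.91 and 3.32 in primary CR1 and CR2, and 4.66 and 7.49 in metastatic CR1 and CR2, each CR tumor below each AS tumor (log2 fold change -0.99, SE 0.35, adjusted p = 0.118, edgeR). Cx3cr1 was called by DESeq2 (adjusted p = 0.0476), which called 3 of the 37 genes and 16.3% of all genes with an adjusted p, and by edgeR without primary CR1 (adjusted p = 0.0123). Thus 3 of 37 genes had phenotypes that did not overlap, where 17.5% of all tested genes did. The two-sided exact permutation test gives any gene without overlap p = 0.0286, the smallest that 4 tumors against 4 allow, so it adds nothing to this count.

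Apart from Arg1, the direction was more often down than up in CR tumors. Of the 37 genes, 28 had a negative and 9 a positive fold change, and the median was -0.33 on the log2 scale, against -0.0065 over all tested genes. This median moved with single tumors. Without metastatic CR1 it was -0.07 with 22 negative genes, and without metastatic CR2 -0.63 with 32. At an unadjusted p under 0.05 there were 8 of the 37 genes (21.6%), against 26.4% of all tested genes.

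**Figure D5:**
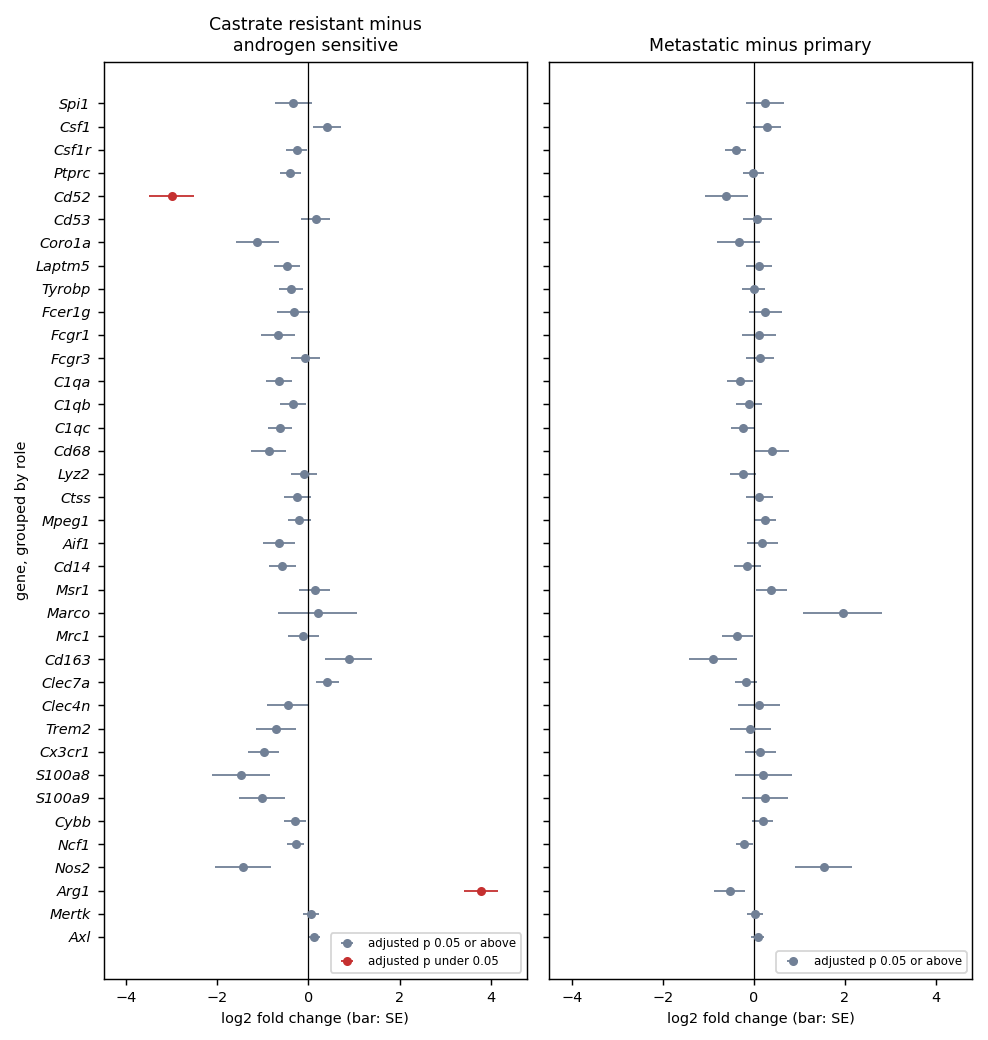
Log2 fold change of each of the 37 genes between the phenotypes (left) and between the tumor types (right), with bars for the standard error of the fit. Genes with an adjusted p under 0.05 are red. They are Arg1 and Cd52 on the left and none on the right.

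Among the lineage and growth factor genes, Spi1 was low in every tumor. It stood at 2.6 and 4.13 CPM in primary AS1 and AS2, 3.27 and 3.56 in metastatic AS1 and AS2, 2.13 and 2.49 in primary CR1 and CR2, and 1.28 and 5.1 in metastatic CR1 and CR2, with overlapping phenotypes (log2 fold change -0.33, SE 0.41, adjusted p = 0.653, edgeR). Csf1r, the CSF1 receptor, stood at 57.4 and 57.7 CPM in primary AS1 and AS2, 60.3 and 44.1 in metastatic AS1 and AS2, 49.9 and 65.4 in primary CR1 and CR2, and 25.6 and 47.7 in metastatic CR1 and CR2, with overlap as well (log2 fold change -0.25, SE 0.23, adjusted p = 0.521, edgeR). Some 15.1% of its exon bases lie opposite Hmgxb3. Its ligand Csf1 stood at 9.85 and 11.7 CPM in primary AS1 and AS2, 17.2 and 11.4 in metastatic AS1 and AS2, 12 and 19.3 in primary CR1 and CR2, and 10.7 and 24.4 in metastatic CR1 and CR2 (log2 fold change 0.41, SE 0.30, adjusted p = 0.422, edgeR). The count ratio of ligand to receptor was 0.172 to 0.285 in AS and 0.24 to 0.511 in CR tumors, and was highest in the 2 CR metastases.

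No leukocyte-wide gene other than Cd52 passed the test. Ptprc stood at 19.7 and 22.9 CPM in primary AS1 and AS2, 28.7 and 17.5 in metastatic AS1 and AS2, 17.6 and 17.6 in primary CR1 and CR2, and 12.1 and 20.002 in metastatic CR1 and CR2 (log2 fold change -0.40, SE 0.23, adjusted p = 0.306, edgeR), and its lowest value was again in metastatic CR1. Cd53, a tetraspanin gene, ranged from 14.6 to 35.7 CPM and Laptm5, a lysosomal membrane protein gene of blood cells, from 5.28 to 11.8. Coro1a, an actin-binding protein gene of leukocytes, split the CR tumors: primary CR1 held 8.87 CPM, within the AS range of 5.27 to 9.42, and the other 3 held 1.56 to 2.996 (log2 fold change -1.13, SE 0.47, adjusted p = 0.175, edgeR). Without primary CR1 it was called (log2 fold change -2.01, adjusted p = 0.00684, edgeR).

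Of the Fc receptors and their adaptors, none of 4 passed the test. Tyrobp, which encodes the adaptor DAP12, stood at 13.7 and 20.1 CPM in primary AS1 and AS2, 23.4 and 16 in metastatic AS1 and AS2, 17.5 and 12.6 in primary CR1 and CR2, and 9.14 and 16.6 in metastatic CR1 and CR2 (log2 fold change -0.39, SE 0.26, adjusted p = 0.379, edgeR). Fcer1g, the common gamma chain, ranged from 2.42 to 7.53 CPM, Fcgr1 from 2.65 to 11.4 and Fcgr3 from 10.9 to 28.7. The latter 2 encode activating IgG receptors. All 4 were lowest in metastatic CR1, and 9.58% of the 50-base windows of Fcgr3 transcripts also occur in Fcgr2b.

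The 3 C1q genes, whose products assemble into C1q, a part of the first component of classical complement, are mainly expressed by macrophages. C1qa stood at 68.7 and 102 CPM in primary AS1 and AS2, 96.5 and 81.9 in metastatic AS1 and AS2, 87.9 and 52.6 in primary CR1 and CR2, and 29.2 and 60.2 in metastatic CR1 and CR2. C1qb stood at 43.6 and 65.4 CPM in primary AS1 and AS2, 64.2 and 47 in metastatic AS1 and AS2, 50.6 and 43.6 in primary CR1 and CR2, and 23.5 and 56.2 in metastatic CR1 and CR2. C1qc stood at 46.2 and 66.1 CPM in primary AS1 and AS2, 61 and 46.9 in metastatic AS1 and AS2, 49.97 and 33 in primary CR1 and CR2, and 20.8 and 41 in metastatic CR1 and CR2. All 3 genes were lowest in metastatic CR1 and highest in primary AS2, and none passed the test (C1qa log2 fold change -0.64, SE 0.28, adjusted p = 0.196; C1qb -0.35, SE 0.29, adjusted p = 0.483; C1qc -0.62, SE 0.26, adjusted p = 0.181, edgeR). While C1qa varied 3.51-fold over the tumors, its count ratio to C1qc stayed between 1.4 and 1.76. Its ratio to C1qb lay between 1.5 and 1.74 in AS tumors and between 1.07 and 1.74 in CR tumors. The promoter windows of C1qb and C1qc printed above each held 1 GAGGAA.

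The lysosome and phagocyte genes overlapped between the phenotypes. Lyz2 stood at 209 and 352 CPM in primary AS1 and AS2, 303 and 240.3 in metastatic AS1 and AS2, 332 and 263 in primary CR1 and CR2, and 143 and 305 in metastatic CR1 and CR2 (log2 fold change -0.10, SE 0.29, adjusted p = 0.861, edgeR), and 15.4% of its 50-base windows also occur in Lyz1, so reads there are uncertain. Cd68, a lysosomal glycoprotein gene used as a macrophage stain, stood at 11.4 and 16.2 CPM in primary AS1 and AS2, 13 and 12.8 in metastatic AS1 and AS2, 4.11 and 6.59 in primary CR1 and CR2, and 4.39 and 15.6 in metastatic CR1 and CR2. In 3 CR tumors it was below every AS tumor, and metastatic CR2 lay inside the AS range (log2 fold change -0.88, SE 0.38, adjusted p = 0.187, edgeR). Without metastatic CR2 its adjusted p was 0.0431 (edgeR). Ctss ranged from 60.7 to 147 CPM, the pore-forming Mpeg1 from 60.9 to 123 and Aif1, which encodes the actin-binding protein IBA1, from 1.51 to 5.6.

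The scavenger, lectin and surface receptors went different ways. Mrc1, the mannose receptor CD206, stood at 118 and 131 CPM in primary AS1 and AS2, 117 and 88.8 in metastatic AS1 and AS2, 76.4 and 168 in primary CR1 and CR2, and 51.7 and 127 in metastatic CR1 and CR2 (log2 fold change -0.11, SE 0.34, adjusted p = 0.862, edgeR). The CR tumors held both the highest and the lowest Mrc1 value. Cd163, the hemoglobin scavenger receptor, stood at 4.77 and 3.43 CPM in primary AS1 and AS2, 3.31 and 2.35 in metastatic AS1 and AS2, 3.12 and 16.5 in primary CR1 and CR2, and 2.24 and 5.95 in metastatic CR1 and CR2 (log2 fold change 0.88, SE 0.52, adjusted p = 0.318, edgeR), and primary CR2 alone was above the other 7 tumors. Primary CR2 was also the highest tumor for Mrc1 and for the glucan receptor Clec7a (dectin-1), at 19.9 CPM in a range of 8.66 to 19.9. It was the lowest for Cx3cr1, and held 2.2 CPM of Trem2, a lipid receptor that signals through DAP12, whose range over all tumors was 2.07 to 8.54. The scavenger receptor Msr1 ranged from 12 to 33.2 CPM, the endotoxin co-receptor Cd14 from 3.2 to 8.92 and Clec4n (dectin-2) from 1.46 to 7.37. Marco ranged from 0.0323 to 1.86 CPM and was highest in metastatic CR2.

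The neutrophil S100 genes were low. S100a8 stood at 0.661 and 3.6 CPM in primary AS1 and AS2, 6.67 and 1.41 in metastatic AS1 and AS2, 1.12 and 1.42 in primary CR1 and CR2, and 0.698 and 1.09 in metastatic CR1 and CR2. S100a9 stood at 0.935 and 2.94 CPM in primary AS1 and AS2, 8.02 and 2.27 in metastatic AS1 and AS2, 1.55 and 2.83 in primary CR1 and CR2, and 1.16 and 1.09 in metastatic CR1 and CR2. Metastatic AS1 was the highest tumor for both, and the phenotypes overlapped (S100a8 log2 fold change -1.47, SE 0.64, adjusted p = 0.187; S100a9 -1.01, SE 0.51, adjusted p = 0.248, edgeR).

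Of the oxidant and arginine enzymes, only Arg1 passed the test. Nos2, which uses the same substrate as arginase, stood at 0.258 and 0.216 CPM in primary AS1 and AS2, 0.295 and 0.756 in metastatic AS1 and AS2, 0.0738 and 0.0489 in primary CR1 and CR2, and 0.116 and 0.405 in metastatic CR1 and CR2 (log2 fold change -1.43, SE 0.62, adjusted p = 0.187, edgeR), which is 1 count in primary CR2 and 77 in metastatic AS2. Cybb, the catalytic subunit of the phagocyte oxidase, ranged from 15 to 29.6 CPM and its partner Ncf1 from 12.3 to 21.5. Part of Ncf1, 11.1% of its exon bases, lies opposite Gtf2ird2.

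The TAM receptor kinases, which bind dying cells through the bridging proteins GAS6 and protein S, had the smallest ranges of the 37 genes. Mertk stood at 10.4 and 11.8 CPM in primary AS1 and AS2, 13.1 and 12.4 in metastatic AS1 and AS2, 12.1 and 14 in primary CR1 and CR2, and 10.1 and 13.6 in metastatic CR1 and CR2. Axl stood at 32.7 and 31.5 CPM in primary AS1 and AS2, 46.3 and 49.5 in metastatic AS1 and AS2, 52.4 and 45.7 in primary CR1 and CR2, and 35.9 and 38.1 in metastatic CR1 and CR2. The highest Mertk value was 1.38 times the lowest and the highest Axl value 1.66 times the lowest, and neither passed the test (Mertk log2 fold change 0.06, SE 0.18, adjusted p = 0.849; Axl 0.12, SE 0.14, adjusted p = 0.622, edgeR). Axl is also expressed by many tumor and stromal cells.

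The phenotypes were then compared within each tumor type, with 2 tumors against 2. Among primary tumors, Arg1 was 21.2-fold higher in CR (log2 fold change 4.41, SE 0.55, adjusted p = 0.0266, edgeR) and was the only 1 of the 37 genes called, 2.7% against 0.296% of all tested genes. This call was lost in 6 of 8 fits that left out 1 tumor, with adjusted p up to 0.207 (edgeR); it held without primary CR1 or primary CR2. Cd52 in primary tumors gave log2 fold change -3.45, SE 0.72, adjusted p = 0.104 (edgeR). There DESeq2 called Arg1 and Cd52, with 4.81% of all genes that had an adjusted p, and limma-voom called Arg1, with 0.27% of all genes. Among metastatic tumors none of the 37 genes was called by edgeR, where 0.36% of all tested genes were. At an unadjusted p under 0.05 there were 8 (21.6%), against 19.9% of all tested genes. Arg1 there was 8.96-fold higher in CR (log2 fold change 3.16, SE 0.52, adjusted p = 0.0521, edgeR) and was called by limma-voom, which called 0.598% of all genes. Cd52 gave log2 fold change -2.56, SE 0.70, adjusted p = 0.108 (edgeR). DESeq2 called 3 of the 37 genes among metastatic tumors, Arg1, Cd52 and S100a9, where it called 9.91% of all genes with an adjusted p, so the share was not above the background.

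The next comparison asks how metastatic tumors differed from primary tumors. None of the 37 genes was called by edgeR, DESeq2 or limma-voom, and 1 (2.7%) had an unadjusted p under 0.05. Over all tested genes edgeR called 0%, with 1289 (6.82%) at an unadjusted p under 0.05, and DESeq2 called 19 genes. The tumor types overlapped for all 37 genes, where 1.72% of all tested genes did not overlap. The median fold change of the 37 genes was 0.08 on the log2 scale, against -0.0248 over all genes, with 21 genes positive and 16 negative. It was 0.24 without metastatic CR1 and -0.26 without metastatic CR2, so its sign rested on single tumors.

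The genes with the smallest p were the 2 with the lowest level per kb. Nos2 gave log2 fold change 1.53, SE 0.62, adjusted p = 0.72 and Marco log2 fold change 1.96, SE 0.87, adjusted p = 0.72 (edgeR). Csf1r was -0.40 (SE 0.23) and Cd163 -0.89 (SE 0.52), with adjusted p = 0.743 and 0.743 (edgeR). Arg1 was -0.53 (SE 0.34, adjusted p = 0.753, edgeR) and Cd52 -0.61 (SE 0.47, adjusted p = 0.797, edgeR).

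Within AS tumors none of the 37 genes was called between metastatic and primary tumors by edgeR or DESeq2, where edgeR called 0% of all genes, and 1 of the 37 (2.7%), Axl, had an unadjusted p under 0.05, against 2.45% of all genes (log2 fold change 0.58, SE 0.19, adjusted p = 1, edgeR). Within CR tumors none was called by either tool and edgeR called 0% of all genes. Of the 37 genes 1 had an unadjusted p under 0.05, where 7.74% of all genes had one. It was Arg1, lower in the 2 CR metastases than in the 2 CR primary tumors (log2 fold change -1.15, SE 0.48, adjusted p = 0.625, edgeR). The difference between these 2 effects was tested as an interaction, which called none of the 37 genes by edgeR or DESeq2 and 0% of all genes by edgeR. Axl had the smallest p of the 37 (unadjusted p = 0.00707, log2 fold change -0.98, SE 0.28, adjusted p = 0.964, edgeR). It was the only 1 of the 37 genes (2.7%) with an unadjusted p under 0.05 there, against 2.74% of all genes. The 2 AS metastases were above the 2 AS primary tumors in Axl and the 2 CR metastases below the 2 CR primary tumors. For Arg1 the interaction gave log2 fold change -1.24, SE 0.68, adjusted p = 0.964 (edgeR).

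Other macrophage and monocyte genes were read beside the 37 in the comparison of phenotypes. Of 35 listed genes 34 were tested, and 4 fell in CR tumors and none rose, with a median fold change of -0.37 on the log2 scale. Counts of called genes in this and the following lists stand against the 8.57% called over all tested genes, and nothing is read from them about a list. The 4 were Spp1, which encodes osteopontin (log2 fold change -1.50, SE 0.22, adjusted p = 0.0122), Irf8, a monocyte and dendritic cell factor (log2 fold change -1.52, SE 0.27, adjusted p = 0.0194), Cd74, the MHC class II invariant chain (log2 fold change -1.81, SE 0.40, adjusted p = 0.0353), and Sirpa, the receptor for CD47 (log2 fold change -1.06, SE 0.26, adjusted p = 0.0464, all edgeR). Sirpa lies outside the naming rule and was added after its value was seen. Irf8 was 15.3 to 18.8 CPM in AS and 3.43 to 7.29 in CR tumors, with no overlap. Of 10 resident-type macrophage genes 9 were tested, 5 with a positive and 4 with a negative fold change (median 0.25 on the log2 scale). None rose and 1 fell, the chemokine gene Ccl8, which was 23.5 to 49.5 CPM in AS and 1.69 to 9.39 in CR tumors (log2 fold change -2.78, SE 0.48, adjusted p = 0.0184, edgeR). Of 7 genes for ligands and partners of the member receptors 6 were tested and 1 fell, Il34, the second ligand of CSF1R, which was 12.7 to 15.4 CPM in AS and 2.79 to 10.7 in CR tumors (log2 fold change -1.11, SE 0.22, adjusted p = 0.027, edgeR). None of 5 phagocyte oxidase partners, 14 tested neutrophil genes, 11 tested activation genes or 10 tested dendritic cell genes was called.

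Markers of other cells were counted for the same tumors. Of 18 T and NK cell genes, 16 stayed below 1 CPM in every tumor, and their summed level was 6.995 to 11.5 CPM in AS and 5.46 to 11.3 in CR tumors. Cd3e was at most 0.161 CPM and Nkg7 at most 0.372, and Cd3g, a T cell receptor chain gene at most 0.403 CPM, fell in CR tumors (log2 fold change -4.47, SE 0.98, adjusted p = 0.0381, edgeR). The 12 B and plasma cell genes summed to 6.36 to 77.2 CPM in AS and 2.82 to 5.25 in CR tumors, and 2 of 8 tested fell, the antibody genes Jchain and Igkc (adjusted p = 0.0443 and 0.0423, edgeR), while Ms4a1 was at most 0.123 CPM. Cd3g, Jchain and Igkc thus moved in the direction of Cd52. Of the 14 tested T and NK cell genes 10 had a negative and 4 a positive fold change, and of the 8 tested B and plasma cell genes 6 and 2. The part of lymphocytes in the fall of Cd52 was not tested. Cpa3 of mast cells was at most 0.0576 CPM, and the 1 tested gene of 8 on the mast cell list was not called. Of 10 fibroblast genes 1 fell in CR tumors, Postn (log2 fold change -2.01, SE 0.36, adjusted p = 0.021, edgeR), and none of 10 endothelial or 7 erythroid and blood genes was called. Of 6 muscle genes 5 were tested and 1 fell, Tnnt3, of 10 prostate and seminal vesicle genes 2 were tested and 1 fell, Msmb, of 7 lymph node stroma genes 5 were tested and 1 rose, Cxcl13 (adjusted p = 0.0269, 0.0302 and 0.0135, edgeR), and none of 3 tested liver and lung genes was called. Between tumor types no gene of any list was called by edgeR.

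The lymph node gene Ccl21a, the lung gene Sftpc and the prostate secretory gene Pbsn were at most 0.0288, 0.0405 and 0.548 CPM, and Alb of liver was at most 3.08 CPM and Acta1 of muscle 0.364 to 14.2. Arg1 is also a liver gene. In CR tumors Alb was 0 to 3.08 CPM and Arg1 167 to 508. The 8 liver and lung genes summed to 4.52 to 26.5 CPM in AS and 5.53 to 8.26 in CR tumors. Whether liver tissue had a part in the Arg1 difference was not tested. Of the 10 genes on the epithelial list 9 were tested, 5 with a positive and 4 with a negative fold change and a median of 0.0146 on the log2 scale. Epcam was at most 0.282 CPM, Krt8 ranged from 36.8 to 721 CPM, 2 of the 9 rose in CR tumors (Krt8 and Krt19, adjusted p = 0.0498 and 0.0184, edgeR), and the list summed to 344 to 517 CPM in AS and 602 to 1179 in CR tumors. The epithelial sum was thus higher in every CR tumor, as Arg1 was, although its genes did not move together, and its part in the Arg1 difference was not tested.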

How the data were processed

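RNA from the 8 tumors was depleted of ribosomal RNA by the authors, made into stranded libraries and sequenced paired-end. They mapped reads with Bowtie to mm10 (GRCm38) and kept single-location reads with up to 2 mismatches, while the submitters' processing notes name TopHat2 2.0 and CASAVA 1.8.2. The deposited values are raw counts per gene. The counting tool, its strand setting and the annotation release are not given in the sources used here.

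Counts were tested in R 4.3.3 with edgeR 4.0.16 (quasi-likelihood, 4 group means, filterByExpr, TMM, Benjamini-Hochberg threshold 0.05). This left 18889 genes. The standard error (SE) of a fold change is its size over the square root of F. All 7 contrasts were fitted on the whole table. Single values were also tested by two-sided exact permutation of log2(CPM + 1). DESeq2 1.42.0, limma-voom 3.58.1, other scaling, filters and models, each of 4 ways to pair metastatic and primary tumors and leaving out each tumor were alternatives.

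On simulated data for the CR against AS comparison, over 18889 genes, 12% of the 2-fold, 76% of the 4-fold, 88% of the 8-fold and 90% of the 16-fold changes were recovered. Total depth differed between tumors, so low genes are least precise in primary CR2 and metastatic CR2. Intervals and errors do not cover handling of tissue.

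Exon length, overlap and shared 50-base windows came from GENCODE M21, and promoters from RefSeq. The genes described and the other lists were chosen with earlier results of these data known. All 37 genes were named, with values in every tumor for 18 preset genes and any called gene. Cx3cr1 was added after its values were seen. In the 18 other lists, defining markers and up to 3 called genes per direction were named, and 1 of 207 listed genes, Lilrb4a, was not matched. Sirpa, Lcn2, Elane and Mpo were named outside this rule.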

Additional observations from a re-analysis of the deposited data

Results flagged for a closer look

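In groups of 4 tumors, a gene was marked where the highest or lowest tumor was separated from the nearest other by more than 0.829 of the group's range on the log2(CPM + 1) scale. This was examined 152 times, over the 37 genes and their median, and met 5 times, where chance alone marks about 1 in 20, or 7.6. Among AS tumors, Csf1r was lowest in metastatic AS2 at 5.49, while the other 3 lay between 5.87 and 5.94. Among metastatic tumors, metastatic CR1 was the lowest for 3 genes. Fcgr1 was at 1.87, while the other 3 lay between 3.4 and 3.63. Cd68 was at 2.43, while the other 3 lay between 3.79 and 4.05. Clec4n was at 1.3, while the other 3 lay between 2.84 and 3.06. Among primary tumors, Cx3cr1 was lowest in primary CR2 at 2.11, while the other 3 lay between 3.45 and 3.65. Metastatic CR1 was also the lowest tumor overall for 23 of the 37 genes.

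The same genes and their median were also searched for complete shifts between tumor types that ran in opposite directions in the 2 phenotypes. With 2 tumors per group chance alone can give such a pattern, and how often was not worked out. The 1 found was Axl, which moved in opposite directions in the phenotypes. Its mean log2(CPM + 1) was 0.562 higher in metastatic than in primary AS tumors, and in CR tumors the difference was -0.395, which is a difference between the effects of -0.957. The search kept only genes in which both tumors of each group took part, so that adds nothing. The interaction term of edgeR did not pass the threshold (adjusted p = 0.964). No explanation was tested for these values.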

How the results depend on the processing

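Of the fold changes, single-gene tests and levels compared across alternatives, 561 values kept direction and side of the threshold, 24 gained a call and 11 lost one. In this tally 1 changed sign: Spi1 between phenotypes was 0.0377 (log2) without metastatic CR1, and its range over the left-out tumors was -0.9819 to 0.0377. The tally does not cover every gene in every fit. Between phenotypes 28 of the 37 genes were negative in the main fit, 22 without metastatic CR1 and 32 without metastatic CR2. Between tumor types these numbers were 16, 10 and 32, so more genes than Spi1 changed sign. Of the median levels, all 8 under protein-coding scaling and 5 with a pseudocount of 5 rose by more than the SD of their group. Of the counts of called genes, 157 stayed within 1.5 times and 63 did not. With no low-count filter, edgeR called 9 of the 37 genes and 3088 genes in all between CR and AS tumors, 3 and 1132 within primary tumors, 7 and 2100 within metastatic tumors, 1 (Marco) and 296 between metastatic and primary tumors, 0 and 179 within AS tumors, 1 (Arg1) and 375 within CR tumors, and 217 genes in all for the interaction. That setting kept every gene with at least 1 count, also those too low for the main test. All 37 genes had passed the filter, so their share and that over all genes are not alike there, and nothing is read from these counts. With DESeq2 the totals were 3013 between phenotypes (3 of the 37), 838 within primary tumors (2 of the 37) and 1654 within metastatic tumors (3 of the 37), 19 between tumor types, 11 within AS tumors, 14 within CR tumors and 2 for the interaction. Limma-voom called 113 genes, 1 of the 37, between phenotypes within metastatic tumors. Leaving out 1 tumor gave 1 to 4 of the 37 genes and 149 to 3244 genes between phenotypes, the fewest without primary AS1 and the most without primary CR1. It gave 0 to 1 and 4 to 389 within primary tumors, and 0 to 3 and 2 to 1538 within metastatic tumors. Between tumor types it gave 0 of the 37 genes throughout, with 0 to 58 genes in all, 0 to 209 within CR tumors and 0 to 78 for the interaction, the highest of each without primary CR2. For the difference between tumor types and the interaction, a replicate block under any of the 4 pairings called 0 of the 37 genes and 0 genes in all, and none was fitted between phenotypes. The causes were not tested. Between phenotypes, with 4 tumors against 4, 12% of simulated 2-fold changes were recovered, and the smaller comparisons were not simulated.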
